A study of Mus musculus with 28 samples.

Results

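The ionotropic glutamate receptor subunits described here are 10 genes, chosen by name: Grin1, Grin2a, Grin2b and Grin3a of the NMDA receptor, Gria1, Gria2, Gria3 and Gria4 of the AMPA receptor, and Grik1 and Grik2 of the kainate receptor. They are 10 of the 55416 Ensembl gene IDs counted in each of 28 mouse libraries, and each symbol matched 1 ID. The libraries hold 3′-end tags of polyadenylated RNA from cortex and heart of C57BL/6J mice. At postnatal day 1 (P1) there were 3 controls (Y334C WT) and 3 mutants (Y334C MT) per tissue, which carry the change Y334C in Sepsecs, an enzyme needed to make the tRNA for selenocysteine. At postnatal day 75 (P75) there were 3 controls (Gpx4 WT) and 5 mutants (Gpx4 MT) per tissue, and the series' design text gives the mutants as Sepsecs Y334C with Gpx4 U/C. Most P75 labels spell the gene Gxp4. No label read here gives the Sepsecs genotype of the P75 controls. Counts do not show either protein change, so they are no check of these labels.

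Ionotropic glutamate receptors are ion channels of 4 subunits that glutamate opens, and they carry most fast excitatory transmission in the cortex. An NMDA receptor joins GluN1, made by Grin1, with GluN2 or GluN3 subunits, and the GluN2 subunit sets how long the channel stays open. In the rodent forebrain GluN2B (Grin2b) is known as the early subunit and GluN2A (Grin2a) as the one added after birth. AMPA receptors carry the fast current, and GluA2 (Gria2) keeps calcium from passing through them. Kainate receptors, which include GluK1 (Grik1) and GluK2 (Grik2), act on both sides of the synapse.

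Promoter sequence from RefSeq (build GRCm38.p6) could be matched by symbol for 4 of the 10 genes, Grin1, Gria2, Gria4 and Grik2. The first 3 are shown, 250 bases up to the start site and on the minus strand, because Grin1 and Gria2 rose with age in the data below while Gria4 did not pass the test. Capitals mark matches to the E box letters CACGTG.
Grin1, chr2:25319188-25319437: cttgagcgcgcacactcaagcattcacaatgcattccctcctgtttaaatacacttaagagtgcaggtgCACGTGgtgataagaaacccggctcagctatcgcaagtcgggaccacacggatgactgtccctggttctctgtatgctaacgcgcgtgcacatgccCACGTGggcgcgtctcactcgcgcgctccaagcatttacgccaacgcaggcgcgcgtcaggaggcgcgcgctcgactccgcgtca
Gria2, chr3:80802836-80803085: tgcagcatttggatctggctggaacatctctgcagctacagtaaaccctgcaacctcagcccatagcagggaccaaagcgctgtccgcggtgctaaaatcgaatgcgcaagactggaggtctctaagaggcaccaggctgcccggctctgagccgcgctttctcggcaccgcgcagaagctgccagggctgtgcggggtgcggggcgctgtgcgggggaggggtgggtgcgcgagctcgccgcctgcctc
Gria4, chr9:4796235-4796484: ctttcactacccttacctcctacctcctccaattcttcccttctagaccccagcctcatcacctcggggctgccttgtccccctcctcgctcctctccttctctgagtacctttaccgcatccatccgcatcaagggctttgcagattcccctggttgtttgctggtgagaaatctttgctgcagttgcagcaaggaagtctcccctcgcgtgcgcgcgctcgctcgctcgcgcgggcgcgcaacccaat
The Grin1 window held the E box letters at -181 to -176 and again at -85 to -80 from the start site, and 6.02% of 32851 promoters hold them. Searches on both strands of the 4 windows found no match to 4 other motifs. These were the GC box (letters GGGCGG), which 32.74% of the promoters hold, and the cyclic AMP response element (letters TGACGTCA), held by 1.55%. The others were the NRF1 core (letters GCATGCGC), held by 2.26%, and the TATA box (letters TATAAA), held by 12.37%. GC content was 58.8% for Grin1, 64.8% for Gria2, 58.8% for Gria4 and 62.8% for Grik2, against a median of 52.4% over the promoters. CpG pairs numbered 27, 19, 16 and 20 in the same order, against a median of 6. Gria4 thus matched Grin1 in GC content and had the fewest CpG pairs of the 4.

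Total counts per library ran from 2997738 to 8779631, so that 1 count was worth 0.114 to 0.3336 CPM (counts per 1e6 counts of the library). A 3′-tag method gives about 1 tag per transcript whatever its length, so CPM were compared between genes without a length correction. Such a comparison still depends on how completely each gene's 3′ end was annotated. The cortical neuron markers Tbr1 and Neurod6 were present in all 14 cortex libraries. The P75 libraries numbered 2, 1 control and 1 mutant, stood apart with Tbr1 at 91.1 and 145.8 CPM, against 232 to 271 in the other 6. They had the highest summed level of 9 striatal markers in their groups, 4812 and 3240 CPM. The other P75 controls had 2841 and 1855 and the other P75 mutants 304 to 1115, while the P1 libraries had 173 to 400. The P1 libraries numbered 3, again 1 control and 1 mutant, had the thalamic marker Tcf7l2 at 424 and 419.6 CPM against 12.3 to 45.3 in the other 4. The 8 pan-neuronal markers summed to 7590 to 8550 CPM at P1 and 6765 to 9234 at P75. The sum hides moves both ways: in the age tests below 5 of the 8 rose and 2 fell in controls. In mutants 5 rose and 3 fell, and the shares over all genes are given with those tests. Oligodendrocyte markers summed to 76.4 to 166 CPM at P1 and 2504 to 5546 at P75, and immature-neuron markers to 8408 to 12887 and 190.5 to 409.6. In tissue of mixed cells, fewer cells of a type and less RNA per cell cannot be told apart.

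From P1 to P75 the control cortex gained tags for 5 of the 10 subunits and lost them for 1. Grin2a rose most, 18.05-fold, followed by Gria3 (3.87-fold), Grin1 (2.80-fold), Gria2 (2.13-fold) and Gria1 (2.06-fold). Grin3a fell, and Grin2b, Gria4, Grik1 and Grik2 did not pass the test. The test was the edgeR quasi-likelihood test with Benjamini-Hochberg adjustment over all 13801 genes, at 0.05. Over those genes, 21.0% rose and 19.1% fell. The 5 of 10 rises are a larger share than this background, but Gria1 among them was called in only 8 of 17 alternatives. The 1 fall of 10 is near the background share. The 10 genes were chosen with earlier results of these data known, so this comparison is no independent check. The median log2 fold change was 0.58 over the 10 genes and -0.0085 over all genes tested. Libraries of the 2 ages did not overlap for 5 of the 10, namely Grin1, Grin2a, Gria2 and Gria3 upward and Grin3a downward, near the 52.9% of all genes tested. In the mutants, which share no library with the controls, 4 of 10 rose against a background of 27.1%, and 3 fell against 25.8%. There Grin1, Grin2a, Gria2 and Gria3 rose and Grin3a, Grik1 and Grik2 fell. Age cannot be told apart from whatever else differed between the P1 and P75 sets of mice.

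**Figure D1:**
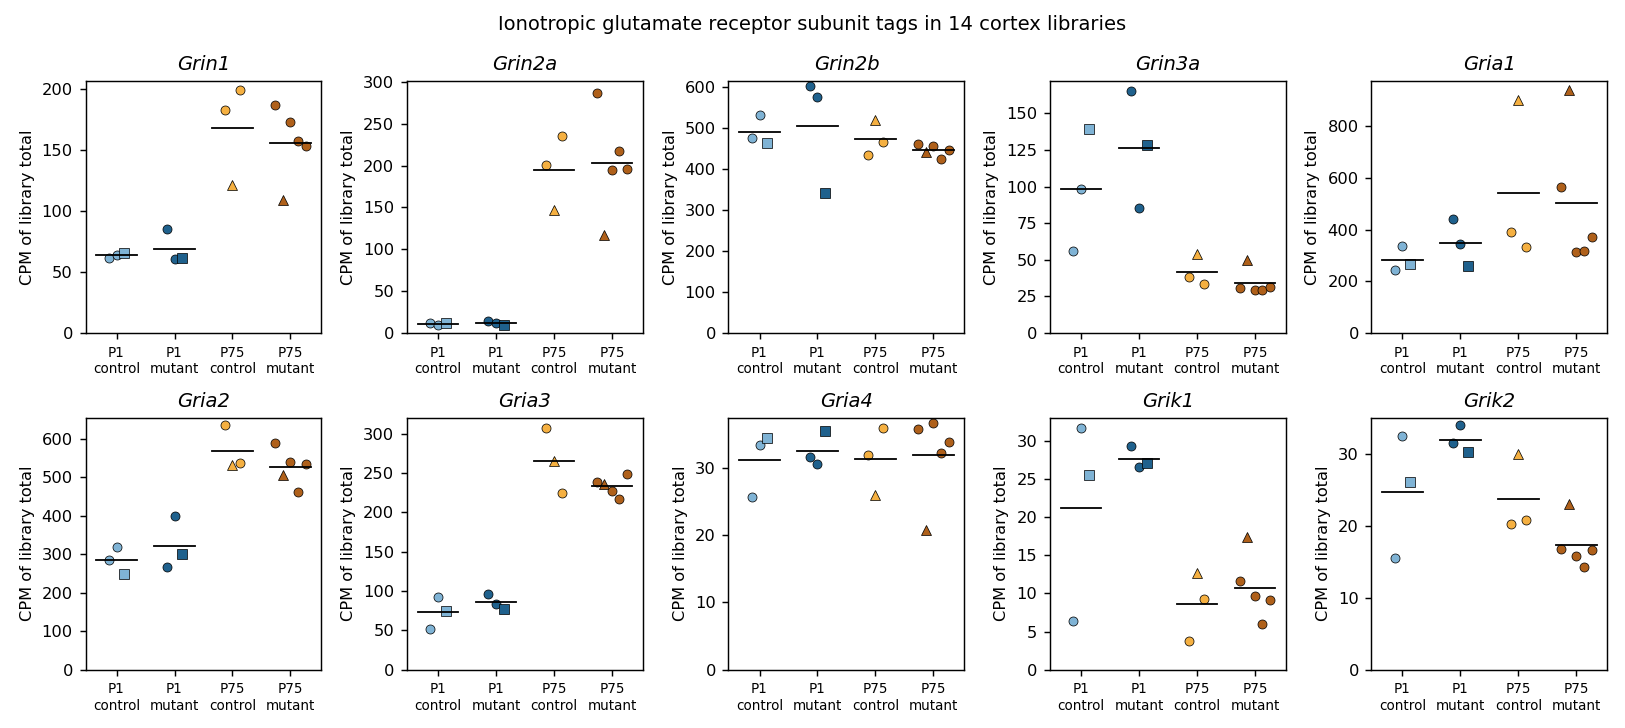
CPM of each subunit gene in the 14 cortex libraries; points are libraries, lines are group means, triangles the P75 libraries numbered 2 and squares the P1 libraries numbered 3. Grin2a lies between 9.64 and 14.8 CPM in every P1 library and between 117 and 287 in every P75 library, while Grin2b lies between 341 and 603 at both ages.

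The NMDA receptor genes changed by unequal amounts. Grin1 (chr2:25291181-25319187, GRCm38), which makes the obligatory subunit, gave 61.8, 63.7 and 65.8 CPM in the P1 controls and 183, 121 and 199 in the P75 controls. In the mutants it gave 84.9, 60.5 and 61.8 CPM at P1 and 186, 109, 173, 157 and 153 at P75. Every P75 library was above every P1 library, with the libraries numbered 2 lowest at P75. The log2 fold change was 1.49 ± 0.23 (SE; edgeR adjusted p = 0.000859) in controls and 1.21 ± 0.19 (adjusted p = 0.000441) in mutants.

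Grin2a (chr16:9567898-9995560), the gene of the late GluN2A subunit, gave 12.05, 9.64 and 11.8 CPM in the P1 controls and 201, 147 and 235 in the P75 controls. The mutants had 14.8, 11.7 and 10.1 CPM at P1 and 287, 117, 195, 217 and 196 at P75. The lowest P75 library, mutant 2, was still far above the highest P1 library. The rise was 4.17 ± 0.26 on the log2 scale in controls (edgeR adjusted p = 1.17e-05) and 4.05 ± 0.29 in mutants (adjusted p = 2.73e-06). In both fits this size lay at the 99th percentile of all genes tested.

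Grin2b (chr6:135713233-136173511), the gene of the early GluN2B subunit, gave 476, 533 and 463 CPM in the P1 controls and 434, 519.7 and 467 in the P75 controls. The mutants had 603, 576 and 341 CPM at P1 and 461.5, 441, 456, 426 and 448 at P75. The ages overlapped fully. The one low P1 value, 341 CPM, came from mutant 3, a library with high Tcf7l2, while P1 control 3, also high in Tcf7l2, gave 463. The part of tissue content in these values was not tested. The age change of Grin2b was 0.045 ± 0.19 in controls (edgeR adjusted p = 0.873) and -0.13 ± 0.18 in mutants (adjusted p = 0.574). The sign in controls turned under upper-quartile scaling (-0.020).

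The pair therefore moved from a Grin2b excess of 44.7 ± 9.22 tags per Grin2a tag (SD, n = 3) in the P1 controls to 2.56 ± 0.84 in the P75 controls. As a share of both, Grin2a was 2.24% ± 0.41 (SD, n = 3) and then 29.1% ± 6.12 (SD, n = 3). The mutants had 2.42% ± 0.44 (SD, n = 3) at P1 and 30.7% ± 6.42 (SD, n = 5) at P75. Grin2b still gave most of the pair's tags in every P75 library. A ratio within a library does not depend on scaling between libraries. The log2 ratio of Grin2a to Grin2b, with 0.5 CPM added to each, rose by 4.10 in controls and by 4.10 in mutants. In the 2-sided exact permutation test the p was 0.1 in controls and 0.0179 in mutants, each the smallest their sample numbers allow. Adjusted over the 4 comparisons made these are 0.2 and 0.0714, above 0.05, though the libraries of the 2 ages did not overlap. Relative to Grin1, summed Grin2a and Grin2b tags went from 7.88 ± 0.65 to 4.17 ± 1.16 per Grin1 tag (SD, n = 3 each) in controls.

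**Figure D2:**
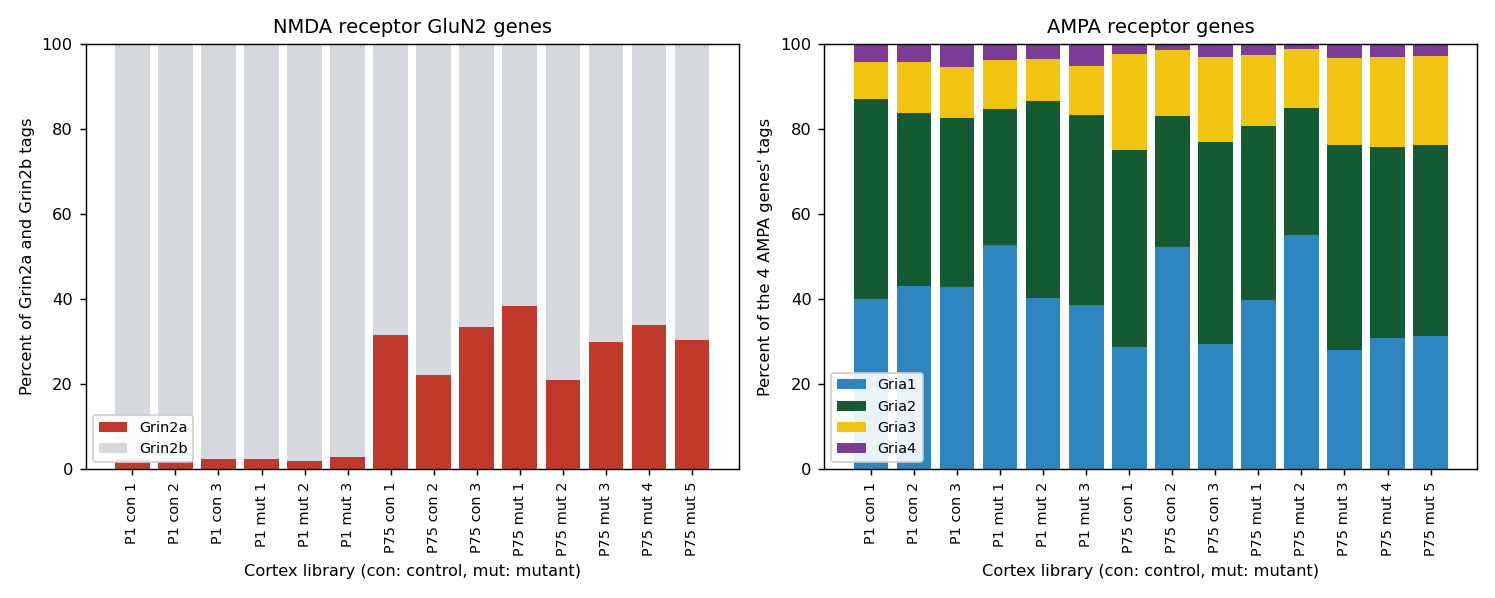
Left, percent of Grin2a and Grin2b tags that came from each gene; right, percent of AMPA receptor tags from each of the 4 genes, with 1 bar per cortex library. The Grin2a share is 1.77% to 2.87% in the 6 P1 libraries and 20.9% to 38.4% in the 8 P75 libraries; the libraries numbered 2 at P75 have the largest Gria1 shares, 52.2% and 55.2%.

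Grin3a (chr4:49661611-49845744) makes GluN3A, a subunit known to lower calcium entry and to be abundant in the first weeks of life. It gave 56.3, 98.6 and 139 CPM in the P1 controls and 38.3, 53.7 and 33.4 in the P75 controls. The mutants had 165, 85.5 and 128 CPM at P1 and 30.9, 49.7, 29.3, 29.3 and 31.6 at P75. No P75 library reached a P1 library, but the lowest P1 control, 56.3, lay close to P75 control 2. The log2 fold change was -1.115 ± 0.32 in controls (edgeR adjusted p = 0.0191) and -1.83 ± 0.25 in mutants (adjusted p = 0.000164). The call in controls was lost without any 1 of 4 libraries, P75 control 1 or 3 or P1 control 2 or 3, with adjusted p from 0.0589 to 0.0715, while that in mutants held in all alternatives run.

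Among the AMPA receptor genes, Gria2 and Gria3 rose in both genotypes. Gria2 (chr3:80681450-80802835) gave 284, 319 and 249 CPM in the P1 controls and 635, 533 and 538 in the P75 controls. In the mutants it gave 266, 399 and 302 CPM at P1 and 588, 507, 539, 462 and 535 at P75. All P75 values exceeded all P1 values. On the log2 scale the change was 1.09 ± 0.21 in controls (edgeR adjusted p = 0.00253) and 0.76 ± 0.16 in mutants (adjusted p = 0.00238).

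Gria3 (chrX:41400854-41678601), the X-linked member, gave 52.3, 92.6 and 74.9 CPM in the P1 controls and 308, 265 and 224 in the P75 controls. The mutants had 96.2, 83.5 and 77.4 CPM at P1 and 238, 237, 228, 217 and 249 at P75. The gap between the ages was wide in both genotypes. Its age change was 1.95 ± 0.25 in controls (edgeR adjusted p = 0.000327) and 1.496 ± 0.14 in mutants (adjusted p = 1.30e-05). Xist, the RNA of the inactive X chromosome, was above 200 CPM in 1 of 3 controls at each age, in all 3 P1 mutants and in 1 of 5 P75 mutants. With Xist level as a covariate the mutant value was 1.49 (adjusted p = 0.000642).

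Gria1 (chr11:57011387-57330244), the gene of GluA1, gave 243, 336 and 269 CPM in the P1 controls and 391, 901 and 334.2 in the P75 controls. The mutants had 439.8, 344 and 259.8 CPM at P1 and 567, 941, 313, 318 and 374 at P75. The 2 highest values were those of the P75 libraries numbered 2, and without them the ages lay close together, with overlap in both genotypes. In controls the log2 fold change was 1.04 ± 0.36 (edgeR adjusted p = 0.0428), and without P75 control 2 it was 0.45 (adjusted p = 0.0792). The call was also lost without any 1 of the 3 P1 controls, with adjusted p from 0.0788 to 0.124. In mutants it was 0.599 ± 0.38 (adjusted p = 0.207). In those 2 libraries the striatal sum was the highest of their groups and Tbr1 the lowest, and the part of tissue content in the Gria1 values was not tested.

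**Figure D3:**
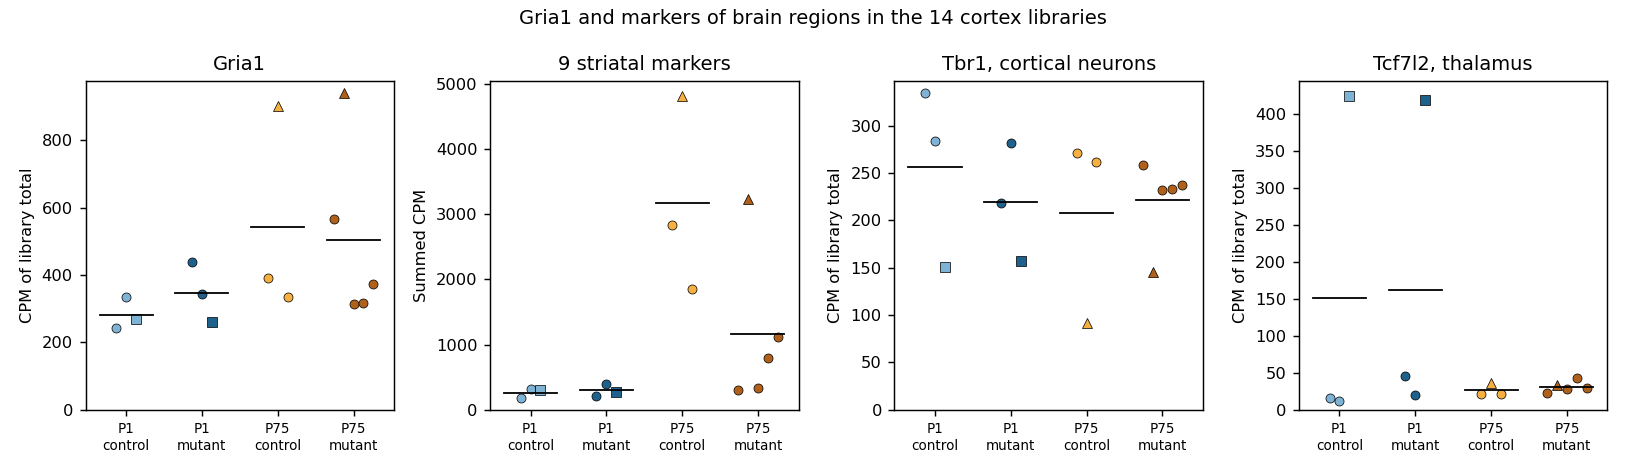
Gria1, the summed level of 9 striatal markers, the cortical marker Tbr1 and the thalamic marker Tcf7l2 in CPM, by cortex library, with lines for group means. Triangles, the P75 libraries numbered 2, are highest for Gria1 and lowest for Tbr1 in their groups; squares, the P1 libraries numbered 3, are the highest for Tcf7l2.

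Gria4 (chr9:4417896-4796234), the gene of GluA4, lay between 25.6 and 35.6 CPM in the P1 libraries and between 20.8 and 36.7 at P75. The log2 fold change was 0.11 ± 0.22 in controls (edgeR adjusted p = 0.722) and 0.019 ± 0.18 in mutants (adjusted p = 0.938). As a share of the 4 AMPA genes' tags in controls, Gria4 went from 4.67% ± 0.71 to 2.34% ± 0.83 and Gria3 from 10.8% ± 1.88 to 19.2% ± 3.62 (SD, n = 3 each). Gria2 held 42.5% ± 3.90 and 41.6% ± 9.31 of them (SD, n = 3 each). Summed AMPA tags per summed tag of the 4 NMDA genes were 1.01 ± 0.093 at P1 and 1.62 ± 0.42 at P75 (SD, n = 3 each).

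The kainate receptor genes were the least abundant family, with 45.9 ± 21.6 CPM at P1 and 32.3 ± 9.53 at P75 for both genes together in controls (SD, n = 3 each). Grik1 (chr16:87895900-88290265) gave 6.44, 31.6 and 25.5 CPM in the P1 controls and 3.81, 12.7 and 9.25 in the P75 controls. The mutants had 29.4, 26.5 and 27.1 CPM at P1 and 11.7, 17.4, 9.62, 6.00 and 9.10 at P75. The P1 control numbered 1 lay among the P75 values. It also had the highest Neurod6 of the cortex libraries, 1126 CPM against 399.98 to 624.98 in the other P1 libraries. The part of its tissue content in the Grik1 value was not tested. On the log2 scale the change was -1.17 ± 0.55 in controls (edgeR adjusted p = 0.118) and -1.29 ± 0.28 in mutants (adjusted p = 0.0031). Without P1 control 1 the control value was -1.61 (adjusted p = 0.0202), and with Xist as a covariate the mutant value was -1.398 (adjusted p = 0.0625).

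Grik2 (chr10:49094833-49788766) gave 15.6, 32.5 and 26.1 CPM in the P1 controls and 20.2, 30.0 and 20.8 in the P75 controls. The mutants had 31.5, 34.04 and 30.2 CPM at P1 and 16.7, 23.0, 15.8, 14.3 and 16.6 at P75. The ages overlapped in controls and were apart in mutants. Its age change was 0.036 ± 0.30 in controls (edgeR adjusted p = 0.934) and -0.82 ± 0.19 in mutants (adjusted p = 0.00376; 0.0631 with the replicate number as a block). That the mutants changed and the controls did not is not shown as a difference: the age-by-genotype term, given below, missed the threshold. That term also carries the Gpx4 U/C allele, which only the P75 mutants have.

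**Figure D4:**
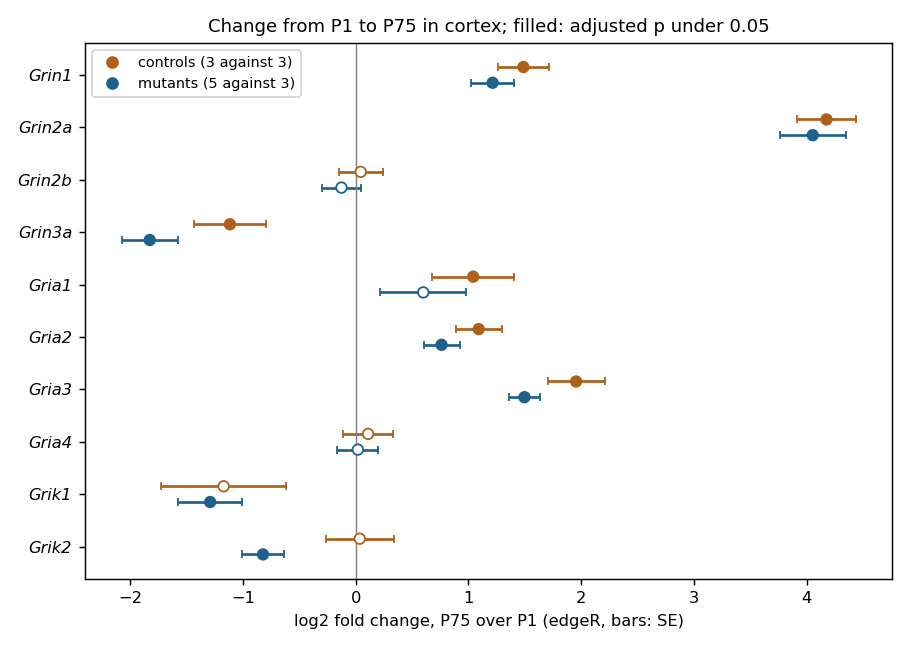
Log2 fold change from P1 to P75 for each subunit gene in control and mutant cortex; bars are SE and filled points have an adjusted p under 0.05 (edgeR). Grin2a stands at 4.17 and 4.05, and Grin2b at 0.045 and -0.13.

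Several other markers moved with age too. All 9 striatal markers were called as rising in controls (median log2 fold change 3.22). In mutants 3 of 9 were called, though all 9 were higher at P75 (median 1.36). Over all genes tested 21.0% rose and 19.1% fell in controls, and 27.1% and 25.8% in mutants, the background for each list here. In both genotypes all 8 oligodendrocyte markers rose and all 6 immature-neuron markers fell. Of 8 astrocyte markers 6 rose in each genotype, and of 7 microglial markers 6 rose in controls and 7 in mutants. Of 9 excitatory-neuron markers 1 rose and 3 fell in controls, and 1 rose and 4 fell in mutants. Of 8 inhibitory-neuron markers 4 rose and 2 fell in controls, and 5 rose and 2 fell in mutants. In the P75 cortex libraries the striatal sum ran from 304 to 4812 CPM, Grin2a from 117 to 287 and Gria3 from 217 to 308. The part of these markers in the subunit changes was not tested. Without the P75 libraries numbered 2 the Grin2a change was 4.335 in controls and 4.197 in mutants. Grin1, Grin2a, Gria2 and Gria3 were called in both genotypes under all alternatives run.

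The order of levels shifted accordingly. In the P1 controls Grin2b led with 491 ± 37.3 CPM (SD, n = 3), above Gria2 and Gria1, which overlapped each other. Grin3a, Gria3 and Grin1 came next and overlapped in turn. Gria4, Grik2, Grik1 and Grin2a were last, each overlapping its neighbour, with Grin2a lowest at 11.2 ± 1.33 (SD, n = 3). In the P75 controls Gria2 led with 569 ± 57.8 (SD, n = 3), overlapping Gria1, which overlapped Grin2b. Gria3, Grin2a and Grin1 formed an overlapping middle tier, so Grin2a moved from last place to the fifth. Grin3a, Gria4 and Grik2 overlapped in turn below them, and Grik1 was lowest at 8.58 ± 4.47 (SD, n = 3). All 10 genes together gave 1381 ± 160.2 CPM at P1 and 2318 ± 263 at P75 in controls (SD, n = 3 each).

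Genes whose log2 CPM, centred on their own mean, ran closest to Grin2a over the 14 cortex libraries were Zfp365 and Rasgrp1. Their root mean square differences from it were 0.18 and 0.22. For Grin2b they were Sh3gl3 (0.12), Ago2 (0.14) and Brd3os (0.14). They were compared over 14806 genes, and all points share the same libraries and depths. Within the family the closest pair was Grin2b and Gria4 (0.32), and Grin1 was 0.35 from Gria2 and 0.36 from Gria3. Outside the family, Atp6v1e1 was 0.10 from Grin1. The member nearest to Grin2a was Gria3 at 1.24. The measure includes the size of a change, so genes of unequal fold change lie apart.

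The other ionotropic subunit genes included 1 rise in controls larger in size than that of Grin2a. Grin2c, a GluN2 gene known from cerebellum and astrocytes, went from 1.26 to 53.7 CPM on average, a log2 fold change of 5.17 ± 0.52 (edgeR adjusted p = 9.06e-05) and 4.12 ± 0.46 in mutants (adjusted p = 4.64e-05). Of the 7 other subunit genes tested, 2 rose and 1 fell in controls: Grid1, of the delta receptors, rose by 1.04 on the log2 scale and Grin2d, a GluN2 gene of early development, fell by 1.30. The median of the 7 was -0.17, and over all genes tested 21.0% rose and 19.1% fell. In mutants 1 of the 7 rose and 3 fell, against 27.1% and 25.8% of all genes tested. The median there was -0.52, and Grid1 was not called (0.16 ± 0.28).

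Of 19 genes for AMPA receptor partners, 10 rose and 2 fell in controls, against 21.0% and 19.1% of all genes tested. Their median log2 fold change was 1.32. Nptx1 and Nptxr, neuronal pentraxin and its receptor, which gather AMPA receptors at synapses, rose by 4.65 ± 0.39 and 2.02 ± 0.20. Gsg1l, a partner in the channel complex, rose by 1.98 ± 0.23. Cacng4, the TARP subunit known from early brain, fell from 501 to 68.4 CPM (log2 fold change -2.77 ± 0.28), and Shisa6 by 1.54. Of the 2 kainate receptor partners tested, Neto2 fell by 1.36 and Neto1 was not called.

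Of 23 postsynaptic scaffold and signalling genes, 15 rose and 3 fell, with a median of 1.105. Over all genes tested 21.0% rose and 19.1% fell in controls, the background for each list in this paragraph. Camk2a, the kinase subunit that binds GluN2B, rose from 104 to 2128 CPM, a log2 fold change of 4.45 ± 0.31 (edgeR adjusted p = 1.59e-05). Dlg1 and Dlgap3 rose by 2.89 ± 0.24 and 2.18 ± 0.25, while Grip1, Homer3 and Grip2 fell by 1.51, 1.38 and 0.93. Of 8 glutamate transport and synthesis genes, 6 rose and 1 fell (median 1.36). The astrocyte transporter Slc1a2 rose by 3.94 ± 0.27, the vesicular transporter Slc17a7 by 3.595 ± 0.36 and Glul by 2.295 ± 0.31, while Slc17a6, the other vesicular transporter, fell by 1.86 ± 0.499. Of 12 GABAA receptor subunit genes, which carry fast inhibition, 7 rose and 1 fell (median 1.14). Gabrd and Gabra4 rose by 4.87 and 2.83, and Gabra5 fell by 0.92. In mutants the counts of rises and falls were 10 and 1 for the AMPA partners, 13 and 3 for the scaffold, 6 and 1 for glutamate transport and 6 and 1 for GABAA subunits. They were 0 and 1 of 2 for the kainate partners, as in controls, and 3 and 0 of 7 metabotropic receptor genes, against 1 and 0 in controls. In mutants 27.1% of all genes tested rose and 25.8% fell.

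The mutants were next set against the controls of their age, to ask whether the mutant genotype of each age went with other subunit levels. At P1 the mutants carry the Sepsecs change alone, and at P75 with the Gpx4 change. The Sepsecs genotype of the P75 controls is not given, so whether the P75 comparison holds the Sepsecs change is not known. At P1, 0 of the 10 genes were called by the edgeR quasi-likelihood test, as were 0 of 13694 genes in all (background 0.0%), with 287 genes at an unadjusted p under 0.05 and 3 called by DESeq2. Log2 fold changes of the subunits ran from 0.024 ± 0.20 for Grin2b to 0.38 ± 0.43 for Grik1, with a median of 0.19, and all 10 were above 0, against 49.4% of all genes. The smallest p among them was 0.179, for Grik2 at 0.36 ± 0.24 (adjusted p = 0.9996). No subunit's libraries separated, where 6.82% of all genes did. The direction of all 10 was not shared by every library: without P1 mutant 1, which had the highest Grin1, Grin2a, Grin2b, Grin3a, Gria1 and Gria3 of its group, 3 of the 10 turned negative. Xist was high in 1 of 3 controls and 3 of 3 mutants at P1. With it as a covariate 8 of the 10 were above 0 and none was called.

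At P75, 0 of 10 subunits and 0 of 13291 genes were called (background 0.0%), with 726 genes at an unadjusted p under 0.05 and 53 called by DESeq2, none of them a subunit. Here 8 of the 10 fold changes were below 0, with a median of -0.14. Grik2 ranked first by p, with -0.47 ± 0.23 on the log2 scale (edgeR adjusted p = 0.95). Its 20.2, 30.0 and 20.8 CPM in controls stood against 14.3 to 23.0 in mutants, with an overlap of mutant 2 alone. Grin3a followed in size at -0.31 ± 0.25 and Grik1 was the highest at 0.29 ± 0.42. Grin2a, 0.025 ± 0.25, and Gria4, -0.0067 ± 0.19, were closest to 0. No subunit's libraries separated, against 4.29% of all genes. The test above was unpaired. Deviations of same-numbered P75 libraries correlated positively, and with the replicate number as a block 48 genes were called, again no subunit. In that fit Grik2 was at -0.35 (adjusted p = 0.647) and Gria1 at 0.16 instead of -0.14. The striatal sum was 1855 to 4812 CPM in the controls and 304 to 3240 in the mutants, with 9 of 9 markers lower (median log2 fold change -1.56). Microglial markers summed to 291 to 373 CPM in the controls and 333 to 1001 in the mutants, with 7 of 7 markers higher (median log2 fold change 1.08). Cardiomyocyte markers summed to 115 to 145.4 CPM (median 139) in the controls and 142 to 508 (median 168) in the mutants. Of 7 tested, 6 were higher, with a median log2 fold change of 1.89 over the genes. None of these markers was called, and their part in the P75 subunit values was not tested.

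The difference between the mutant effects at the 2 ages was tested directly as an interaction over the 14 cortex libraries. Age and the added Gpx4 allele cannot be told apart in this term, and the Sepsecs genotype of the P75 controls is not given. It called 0 of 10 subunits and 0 of 14806 genes (background 0.0%), with 521 genes at an unadjusted p under 0.05 and 1 called by DESeq2. The estimates for all 10 were below 0, whereas 50.9% of all genes were above 0. All 10 effects were above 0 at P1, and 8 of 10 were below 0 at P75. The 10 genes are read in the same libraries, so their directions are not independent. Without P75 control 2, P75 control 3, P75 mutant 2, P1 control 1 or P1 mutant 1, 8 of 10 estimates were below 0. Grik2 had the lowest value, -0.83 ± 0.35 (unadjusted p = 0.0302, edgeR adjusted p = 0.9999), followed by Grin3a at -0.69 ± 0.43. The Grin2a to Grin2b log2 ratio differed between mutants and controls by 0.11 at P1 and 0.11 at P75, with 2-sided exact permutation p = 0.7 and 0.786. These differences were smaller than the spread between libraries within a group, 0.27 to 0.46 (SD).

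**Figure D5:**
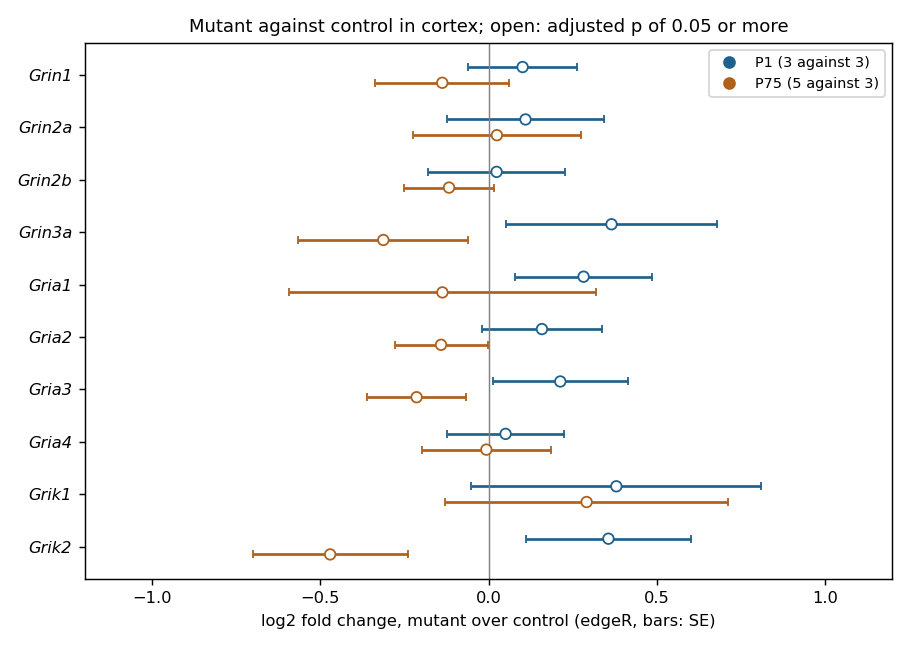
Log2 fold change of mutant over control cortex for each subunit gene at P1 and P75; bars are SE (edgeR) and all points are open because no adjusted p was under 0.05. The P1 values run from 0.024 to 0.38 and the P75 values from -0.47 to 0.29.

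Among the related genes, none of the 7 lists held a called gene in either mutant comparison. The gene of smallest p at P1 was Gabra2, a GABAA receptor subunit, at 73.2 CPM in mutants and 21.5 in controls (log2 fold change 1.74 ± 0.27, unadjusted p = 0.00011, edgeR adjusted p = 0.9996). At P75 Gabra2 was at 118 and 112 CPM (0.036 ± 0.14). At P1 the smallest p of 5 other lists belonged to Grid1 (0.43), Cacng4 (-0.22), Neto1 (0.14), Camk2a (0.64) and Grm2 (-0.53), as log2 fold changes. At P75, in 6 lists, it belonged to Gsg1l (-0.26), Neto1 (-0.64), Shank3 (-0.77), Grm4 (-0.83), Slc17a6 (0.65) and Gabrd (-0.62), none past the threshold.

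In heart the subunits were far lower than in cortex. Cardiomyocyte markers summed to 31647 to 48085 CPM there and to 37.1 to 508 in cortex. Gria1 was the only one of the 10 genes above 10 CPM in any heart library. It gave 4.83, 8.31 and 8.90 CPM in the P1 controls and 10.6, 14.1 and 9.14 in the P1 mutants. The groups did not overlap, as for 5.72% of the 12876 genes tested, but the log2 fold change of 0.58 ± 0.35 was not called (edgeR adjusted p = 0.9998). All 3 P1 heart mutants and control 3 were extracted with RNeasy and controls 1 and 2 with TRIzol, so genotype and kit are largely confounded here. The TRIzol controls had 4.83 and 8.31 CPM, the RNeasy control 8.90 and the RNeasy mutants 9.14 to 14.1. The part of the kit in these values was not tested. The other subunits reached at most 7.97 CPM (Gria3), 5.98 (Gria2), 3.93 (Grin2b) and 2.42 (Gria4), and Grik1 had no tag in 10 of 14 libraries. A count of 0 allows up to 3 counts, which is 0.342 to 0.633 CPM over the heart libraries, for counting error only. In heart, 2 subunits passed the count filter at P1 and 4 at P75, and 0 were called at either age, against 0.0% and 0.0163% of all genes.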

How the data were processed

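Libraries were made with QuantSeq, a 3′-tag kit for polyadenylated RNA, per the labels' protocols. Reads were aligned with STAR to GRCm38, per the submitters' processing notes; its version, the counter and the gene models behind the counts are not stated in any source read here. The authors deposited raw counts, 1 per Ensembl ID in each library. Symbols and positions came from GENCODE M21 (GRCm38), and 52083 of 55416 IDs had a symbol. All cortex RNA was extracted with TRIzol; in heart, P1 control 3 and the 3 P1 mutants used an RNeasy kit.

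Groups follow the labels' age, tissue and genotype. Labels do not say whether libraries are separate mice, which the design text implies. Genes kept by filterByExpr were TMM-normalised and tested with the edgeR 4.0.16 quasi-likelihood F test (R 4.3.3, prior count 2), with Benjamini-Hochberg adjustment over all genes and a threshold of 0.05. SE is the absolute log2 fold change over the root of F. CPM are counts per 1e6 counts of the library. The ratio of Grin2a to Grin2b used a pseudocount of 0.5 CPM and exact permutation tests (scipy 1.17.1). The procedure was tested on simulated data.

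The 10 subunits, the pathway and marker lists and the tests were chosen with earlier results of these data known. Named pathway genes are the 3 of smallest p in each direction among those called with age, and the 1 of smallest p per list in each mutant comparison. Some genes that this rule gives are not reported here. Alternatives were RLE and upper-quartile scaling, DESeq2 1.42.0, limma-voom (limma 3.58.1) with quality weights, leaving out the count filter, keeping genes of mean count 10 or more, the replicate number as a block, all 14 libraries of a tissue in 1 fit, Xist as a covariate, each library left out, and no P75 libraries numbered 2. Leaving out the P1 libraries numbered 3 was chosen after seeing the data. As a check of pairing, deviations from group means were correlated between same-numbered libraries. In P75 cortex r was 0.321, 0.717 and 0.354, but control 3 correlated more highly with a mutant library of another number. The labels state no pairing, so the main tests were unpaired and the replicate number was a block only as an alternative. In P1 cortex they were 0.048, 0.341 and 0.419, in P1 heart -0.164 to 0.195 and in P75 heart -0.18 to 0.336.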

Additional observations from a re-analysis of the deposited data

Results flagged for a closer look

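Of 21 groups of 5 libraries checked, 5 held a library whose gap to the nearest other, over the group's range, was above Dixon's critical value of 0.71. Chance alone gives about 1 in 20 independent groups, but the 5 are not independent, since 3 share a library, and the Grik1 case below is 1 count against zeros, so the number is not compared with that rate. Among them, 3 are from P75 cortex mutant 2, the library with low Tbr1 and a high striatal sum. It had 49.7 CPM of Grin3a against 29.3 to 31.6 in the other P75 mutants. Its Gria4 was 20.8 CPM against 32.3 to 36.7, and its Grik2 was 23.0 CPM against 14.3 to 16.7. The part of its tissue content in these values was not tested. In heart, P75 mutant 2 had 0.0 CPM of Gria2 against 3.66 to 4.92 in the other mutants. P75 heart mutant 3 had 0.145 CPM of Grik1, which is 1 count, where the other 4 had 0.0.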

How the results depend on the processing

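Grin1, Grin2a, Gria2 and Gria3 were called with age in both genotypes under every alternative run. In controls Gria1 was not called under upper-quartile scaling (0.97, adjusted p = 0.0524), limma-voom (0.50) or 1 fit of all 14 libraries, and Grik1 was called without a count filter, under limma-voom, with the replicate block or with Xist as a covariate. The replicate block left Grik2 uncalled in mutants, with 4703 genes called with age instead of 7395, and Xist as a covariate gave 4816. In the age tests the block joins P1 and P75 libraries by number alone, and no label links them. No subunit was called in any mutant comparison or interaction under any alternative. The causes of these shifts were not tested.

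Calls over all genes moved as follows. In P1 cortex they were 52 without a count filter, 3 with DESeq2, 1 with all libraries, 9 with Xist and 1 without the libraries numbered 3. In P75 cortex they were 11 without a filter, 53 with DESeq2, 48 with the replicate block, 4 with all libraries and 3 without the libraries numbered 2. The interaction gave 10 without a filter and 1 with DESeq2. In P1 heart there were 118 without a filter, 10 with DESeq2, 2 with the replicate block and 1 with all libraries. In P75 heart there were 8 with upper-quartile scaling, 72 without a filter, 96 with DESeq2, 17 with limma-voom, 0 with the block, 33 with all libraries and 4 without the libraries numbered 2. Leaving out 1 library gave 0 to 5 calls in P1 cortex, 0 to 2 in P75 cortex, 0 to 14 in P1 heart and 0 to 10 in P75 heart, and 4 to 6 subunits with age in controls.

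Signs turned only for log2 changes that were not called. With age in controls Grin2b was -0.020 and Grik2 -0.031 under upper-quartile scaling, -0.061 and -0.18 under limma-voom, and -0.036 and -0.17 without the libraries numbered 2. Grik2 was -0.00047 without a filter, and Grin2b -0.058 without the P1 libraries numbered 3. In mutants Gria4 was -0.031 with the replicate block. For P1 mutants Grin2b was -0.066 under limma-voom, -0.012 with the block and -0.0098 with Xist, where Grin2a was -0.023. For P75 mutants Gria4 was 0.015 under upper-quartile scaling and 0.013 with Xist. Grin2a was -0.046 under limma-voom, -0.036 with the block and -0.0033 without the libraries numbered 2; Gria1 was 0.16 with the block and 0.074 without those libraries. Grin2a in the interaction was 0.23 with Xist. In P75 heart limma-voom gave 0.72 for Grin2b and 0.41 for Gria1, the block -0.087 for Gria2 and -0.096 for Gria3, Xist 0.012 for Gria1, and the set without libraries numbered 2 -0.15 for Gria2.

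Leaving out 1 library spanned 0, with age in controls, for Gria4 (-0.0046 to 0.22), Grik2 (-0.21 to 0.28) and Grin2b (-0.058 to 0.11), and in mutants for Gria4 (-0.031 to 0.14) and Grin2b (-0.33 to 0.023). For the P1 mutants it did so for Gria2 (-0.0018 to 0.28), Gria4 (-0.053 to 0.12), Grik1 (-0.042 to 0.81), Grin1 (-0.071 to 0.205), Grin2a (-0.047 to 0.21) and Grin2b (-0.12 to 0.23). For the P75 mutants these were Gria1 (-0.53 to 0.46), Gria4 (-0.11 to 0.091), Grik1 (-0.066 to 0.63) and Grin2a (-0.15 to 0.17). In the interaction they were Gria1 (-0.81 to 0.19), Gria4 (-0.15 to 0.046), Grik1 (-0.51 to 0.33), Grin2a (-0.24 to 0.077) and Grin2b (-0.35 to 0.0097). In heart they were Gria3 at P1 (-0.15 to 0.71), and Gria1 (-0.44 to 0.25), Gria2 (-0.42 to 0.896) and Grin2b (-0.8 to 0.13) at P75. The Grin2a to Grin2b log2 ratio between genotypes ran from -0.050 to 0.24 at P1 and from -0.15 to 0.29 at P75.

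In heart, low counts limit the values: 6 of the 10 genes had at most 14 counts in any library. The 3 controls at each age limit the size of mutant effect that could be called.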
